A study of Mus musculus with 2 samples.

Results

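The genes described here are 9 transcription factor genes linked to the identity of the hepatocyte, the parenchymal cell of the liver: Cebpa, Cebpb, Cebpd, Hnf4a, Onecut1, Foxa1, Foxa2, Foxa3 and Nr5a2. Their rows were found by gene symbol, and the set was proposed with earlier results of these data known. Each gene was read by 1 probe set, a group of probes summarised into 1 intensity. They are 9 of the 15644 genes with a named probe set on the arrays. Primary hepatocytes were isolated from 1 male C57BL/6 mouse, 9 weeks old, and spent 24 h in culture before treatment. The treated cells then received 10 µmol/l pregnenolone 16α-carbonitrile (PCN), a steroid and rodent ligand of the pregnane X receptor, and the control cells received its solvent dimethyl sulfoxide (DMSO), each for 12 h. Pools of 3 RNA samples were hybridised, 1 pool per group and 1 Affymetrix array per pool, so the series holds 1 PCN array and 1 DMSO array. With 1 array in each group there is no spread between replicates and no test, and the words "higher" and "lower" refer to this pair of arrays alone. The comparison asks which transcripts respond to PCN in isolated hepatocytes.

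Hepatocyte identity is kept by a small set of DNA-binding factors that activate one another's genes and act together at the control regions of liver genes. C/EBP proteins are basic leucine zipper factors that bind as dimers: C/EBPα, from Cebpa, favours the metabolic functions and the quiescence of adult hepatocytes, whereas C/EBPβ and C/EBPδ, from Cebpb and Cebpd, are known for acute phase and regenerative responses. HNF4α, an orphan nuclear receptor, and the FOXA proteins, forkhead factors that can bind closed chromatin, act at a large share of liver genes. LRH-1, the nuclear receptor encoded by Nr5a2, is known for its part in bile acid and cholesterol genes, and HNF6, encoded by Onecut1, is a cut-homeodomain factor of liver and bile duct development.

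The promoters of the 3 members with the largest differences among those above the signal floor explained further on (Cebpa, Nr5a2 and Foxa3) are shown beside that of Cebpb, the measured member that was higher with PCN. Each line gives the 250 bases upstream of an annotated start, 5′ to 3′ on the gene's strand, from RefSeq on GRCm38.p6. Capitals mark motifs found by a search on both strands. The half-site of C/EBP factors was searched as TTGCG. Their full palindrome, which contains the half-site on both strands, was searched as TTGCGCAA. For the forkhead factors of the FOXA family the letters were TGTTTNC. For HNF4 proteins they were CAAAGTCCA. For the cut-homeodomain ONECUT factors they were ATTGAT. For the NR5A receptors they were CAAGGNC. The TATA box, bound by the general transcription machinery, was searched as TATAAA.
Cebpa: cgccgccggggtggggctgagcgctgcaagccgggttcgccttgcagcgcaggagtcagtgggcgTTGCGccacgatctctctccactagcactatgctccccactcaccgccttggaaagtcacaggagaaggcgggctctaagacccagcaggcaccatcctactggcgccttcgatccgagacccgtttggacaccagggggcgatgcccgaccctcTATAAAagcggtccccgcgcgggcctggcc
Foxa3: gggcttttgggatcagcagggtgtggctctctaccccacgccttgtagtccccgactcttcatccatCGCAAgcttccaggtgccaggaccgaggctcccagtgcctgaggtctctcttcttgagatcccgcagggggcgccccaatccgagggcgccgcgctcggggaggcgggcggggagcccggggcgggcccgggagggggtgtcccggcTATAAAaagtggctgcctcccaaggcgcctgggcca
Nr5a2: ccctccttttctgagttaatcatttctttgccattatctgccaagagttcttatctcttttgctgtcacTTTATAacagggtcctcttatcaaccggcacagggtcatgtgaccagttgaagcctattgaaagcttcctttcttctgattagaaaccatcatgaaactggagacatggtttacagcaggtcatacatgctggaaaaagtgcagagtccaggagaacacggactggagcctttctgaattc
Cebpb: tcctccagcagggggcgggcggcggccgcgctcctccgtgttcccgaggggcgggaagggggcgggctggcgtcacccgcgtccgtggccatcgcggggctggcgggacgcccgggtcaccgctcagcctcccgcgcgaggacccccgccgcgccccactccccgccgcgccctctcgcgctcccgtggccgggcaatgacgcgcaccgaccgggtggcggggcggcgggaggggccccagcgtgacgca
The Cebpa window is chr7:35119043-35119292 on the plus strand. The Foxa3 window is chr7:19023540-19023789 on the minus strand. The Nr5a2 window, at the outer of 2 annotated starts, is chr1:136960449-136960698 on the minus strand. The Cebpb window is chr2:167688665-167688914 on the plus strand.

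In Cebpa the half-site lay 185 to 181 bases upstream of the start and the TATA box 30 to 25 bases upstream. The mouse Cebpa promoter is known to be bound by C/EBP proteins, its own product among them. In Foxa3 the half-site lay on the opposite strand, 183 to 179 bases upstream, and the TATA box 36 to 31 bases upstream. The Nr5a2 window held the TATA letters on the opposite strand at 181 to 176 bases upstream, and the Cebpb window held none of the motifs. Bases G and C made up 66.4% of the Cebpa window, 68.8% of that of Foxa3, 43.2% of that of Nr5a2 and 81.6% of that of Cebpb. RefSeq windows matched 8 of the 9 members by Entrez number, all but Cebpd, with 12 windows in all. The C/EBP half-site was in 3 of these 12, against 14.5% of all 32851 windows, and the TATA letters were in 4 of 12, against 12.4%. The FOXA motif was in 2 of 12, in Hnf4a and Foxa1, against 17.8%, and the ONECUT motif was in 2 of 12, in Hnf4a and Foxa2, against 6.72%. The NR5A motif was in 1 of 12, in Foxa2, against 15.0%. Neither the HNF4 motif (0.384% of all windows) nor the full palindrome (0.164%) was in any of the 12. The TATA letters of Nr5a2 and Foxa2 lay on the opposite strand. Motifs were chosen with the sequences in view, and 3 of the 12 windows belong to Foxa2, so these shares do not support an excess in the members. A match describes letters in a window and is not evidence of binding.

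Of the 9 factors, 8 reached the signal floor on both arrays, and 1, Onecut1, was under it on both. The floor is an intensity of 32, or 5 on the log2 scale, below which a gene was counted as not measured. Of the 8 measured factors, 7 were lower and 1 was higher with PCN, at any size of difference. Over all 6449 measured genes, 42.4% were lower and 57.6% higher. Cebpa was lower by more than 1.5-fold and was the only member past that size, against 1.94% of all measured genes in either direction and 1.30% in the lower direction. At 1.2-fold, Cebpa, Nr5a2 and Foxa3 were past the size, all lower, against 18.0% of measured genes in either direction and 8.95% in the lower direction. No member was 2-fold apart, a size that 0.326% of measured genes reached. The median log2 difference, PCN minus DMSO, was -0.18 over the 8 measured members and 0.03 over all measured genes. In RNA from whole cultures, fewer cells of a type and less RNA per cell cannot be told apart.

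**Figure D1:**
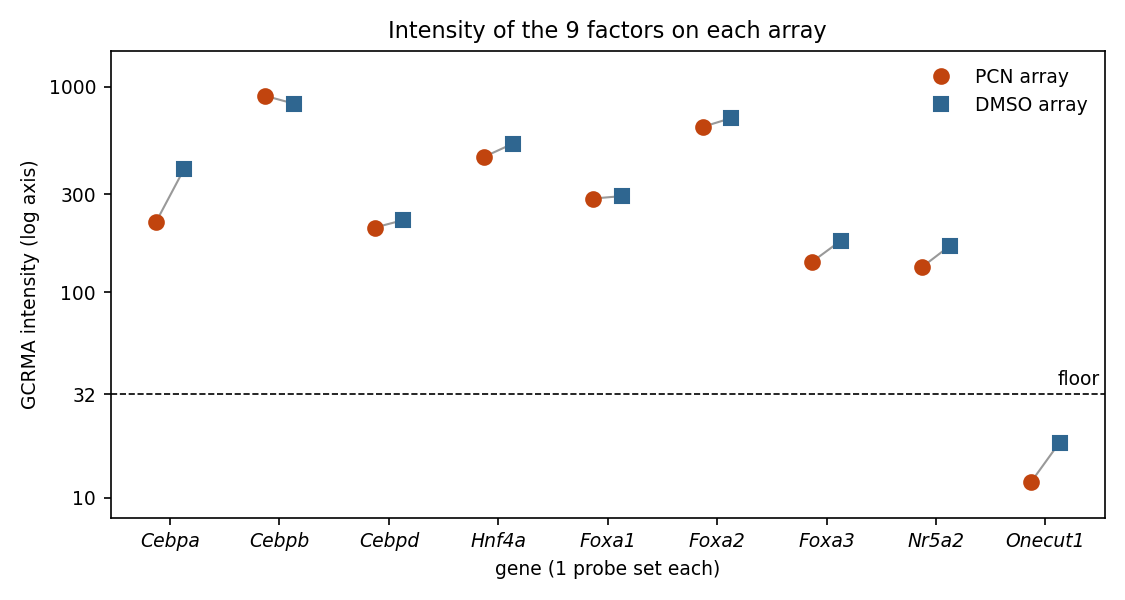
GCRMA intensity (log axis) of the 9 transcription factor genes, with the PCN array as circles to the left of the DMSO array as squares; each point is 1 array and the dashed line is the floor of 32. The PCN point lies below the DMSO point for every gene except Cebpb, and both Onecut1 points lie under the floor.

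As a measure of the spread between arrays, 38 bacterial and phage control probe sets above the floor had a mean log2 difference of -0.03 with an SD of 0.10, with extremes of -0.33 and 0.16. Being spiked in, they do not carry the differences between cultures. Only Cebpa, Nr5a2 and Foxa3 lay outside that range, with Nr5a2 (-0.35) and Foxa3 (-0.34) barely beyond it. Of all measured genes, the central 90% lay between log2 differences of -0.35 and 0.33. The median probe set had an intensity of 14.1 in the PCN array and 14.4 in the DMSO array. Intensities of different probe sets depend on their probes and are not amounts of RNA that can be set against each other, so no order of expression among the 9 genes is given. Percentiles are given instead, to show where in an array's range of signals a probe set lay.

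Among the C/EBP genes, Cebpa had an intensity of 219 in the PCN array and 400.5 in the DMSO array. The treated culture thus kept 54.8% of the DMSO signal, a log2 difference of -0.87 or 1.82-fold lower with PCN. Cebpa had the 22nd lowest difference of the 6449 measured genes, and 0.34% of them were as low or lower. Its signal lay at the 79.9th percentile of named genes in the PCN array and at the 86.0th in the DMSO array, far above the floor on both. Cebpb had an intensity of 905 in the PCN array and 829.6 in the DMSO array, a log2 difference of 0.13 or 1.09-fold higher. This difference was within the range of the added controls, and 71.98% of measured genes were as low or lower. Cebpd had an intensity of 207 in the PCN array and 225 in the DMSO array, a log2 difference of -0.12 or 1.09-fold lower. Cebpd also lay within the range of the added controls, so of the 3 C/EBP genes only Cebpa stood outside it.

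The signals of Cebpa and Cebpb thus differed unequally between the arrays. Relative to Cebpb, Cebpa was 1.99-fold lower with PCN, a log2 difference between the genes of -0.99. This relative change does not depend on a common scaling of the arrays, since such a scaling acts on both genes alike. Cebpa alone was at -0.87, and the 0.13 of Cebpb lay within the range of the added controls. The proteins of this pair compete for the same sites and form dimers with each other. Cebpa and Cebpb had the lowest and the highest difference of the 8 measured factors, which makes them the pair furthest apart by definition. The intensities do not show protein amounts or the isoforms made from either mRNA by different start codons.

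**Figure D2:**
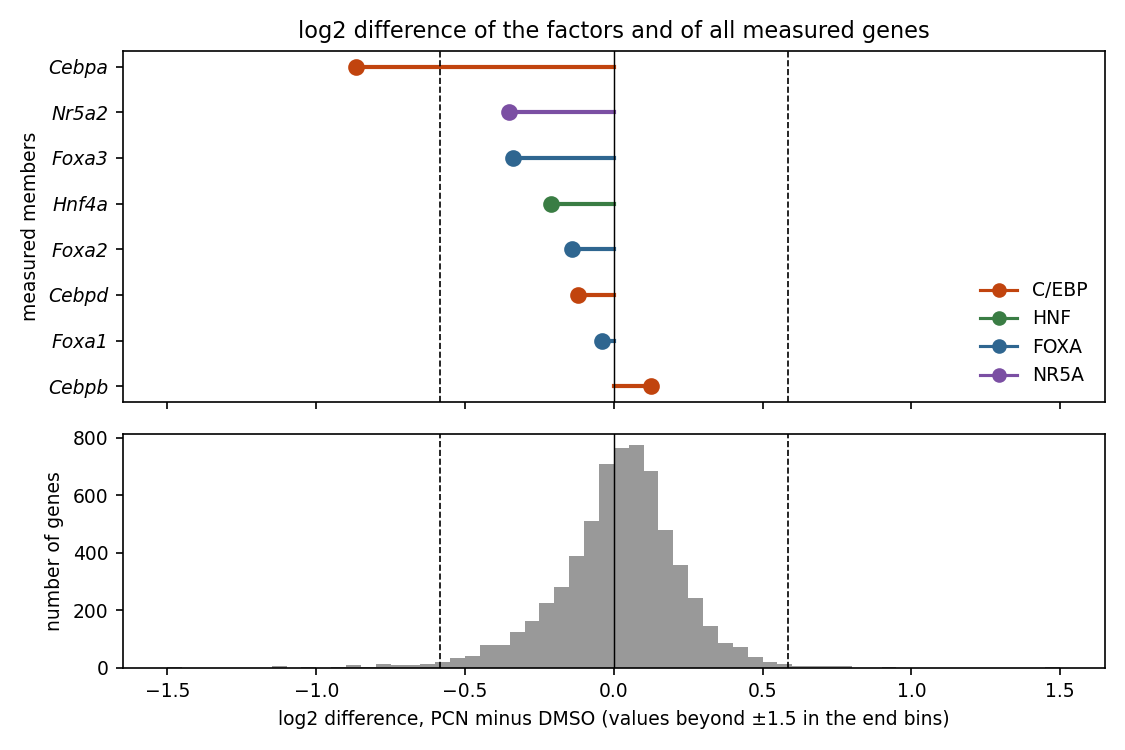
Upper panel: log2 difference, PCN minus DMSO, of the 8 measured factors, coloured by family. Lower panel: the number of measured genes in bins of the same difference, with dashed lines at 1.5-fold in either direction in both panels. Cebpa, at -0.87, is the only factor past a dashed line, and Cebpb, at 0.13, is the only one to the right of 0.

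Of the HNF genes, Hnf4a had an intensity of 457 in the PCN array and 529 in the DMSO array. Its log2 difference was -0.21, or 1.16-fold lower with PCN, and 12.3% of measured genes were as low or lower. That difference lay within the range of the added controls. RefSeq lists 2 start windows for Hnf4a, whose products differ at the amino terminus, and the single probe set does not tell their transcripts apart. Onecut1 had an intensity of 12.0 in the PCN array and 18.6 in the DMSO array. Both values were under the floor, at the 47.4th percentile of named genes in the PCN array and the 53.3rd in the DMSO array, so no fold is given for it.

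All 3 FOXA genes were lower with PCN, by unequal amounts. Foxa3 had an intensity of 141 in the PCN array and 178 in the DMSO array, a log2 difference of -0.34 or 1.26-fold lower. Of the measured genes, 5.49% were as low or lower. Foxa3 is the FOXA gene whose transcripts are the most abundant in adult mouse liver, as known from earlier work. Foxa2, a regulator of bile acid and lipid genes in the liver, had an intensity of 639.9 in the PCN array and 705 in the DMSO array. Its log2 difference was -0.14, or 1.10-fold lower, within the range of the added controls. Foxa1, which overlaps with Foxa2 in liver development, had an intensity of 286 in the PCN array and 294 in the DMSO array. Its log2 difference of -0.04 was the smallest of the 8 measured factors, at 1.03-fold lower.

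Nr5a2 had an intensity of 132 in the PCN array and 169 in the DMSO array, which makes it 1.28-fold lower with PCN. The log2 difference was -0.35, and 5.16% of measured genes were as low or lower. Nr5a2 and Foxa3 thus lay near the 5th percentile of all measured genes, whereas Cebpa lay beyond the 1st percentile of -0.63. Over the families, the median log2 difference was -0.12 for the 3 C/EBP genes and -0.14 for the 3 FOXA genes, and the C/EBP genes had the wider range, from -0.87 to 0.13 against -0.34 to -0.04.

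Relatives of the 9 genes were looked up by symbol. Cebpg, whose short protein dimerises with other C/EBP factors, had an intensity of 63.9 in the PCN array and 70.5 in the DMSO array, a log2 difference of -0.14. Onecut2, the nearest relative of Onecut1, had 79.1 in the PCN array and 91.5 in the DMSO array, a log2 difference of -0.21. Onecut2 was thus above the floor where Onecut1 was under it. Hnf4g had 3.42 in the PCN array and 3.17 in the DMSO array, Nr5a1 had 6.32 in the PCN array and 6.00 in the DMSO array, and Onecut3 had 3.05 in the PCN array and 3.11 in the DMSO array. All 3 of these genes were far under the floor.

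Wider lists set the 9 factors among other regulators. A list of 16 genes held mostly C/EBP family members and basic leucine zipper partners. Of these 16, 14 could be matched to a probe set and 8 reached the floor, 2 higher and 6 lower with PCN, with a median log2 difference of -0.13. After Cebpa, the largest differences were -0.25 for Atf5, a stress-response factor with high expression in liver, and -0.17 for Nfil3, a repressor linked to the circadian clock. Of 29 other liver transcription factors, 27 could be matched and 15 reached the floor, 5 higher and 10 lower, with a median of -0.08, and none was 1.5-fold apart. Ppara, the fatty acid-sensing receptor, had an intensity of 266 in the PCN array and 377 in the DMSO array, a log2 difference of -0.50. Nr1h4, the bile acid receptor FXR, was at -0.34, Zhx2, a repressor of fetal liver genes, at -0.29 and Creb3l3, a factor of fasting metabolism, at -0.22. Cebpa therefore had a larger difference than any of these 15 measured regulators.

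Genes linked in earlier work to the factors were mostly lower, by small amounts. The 5 lists of linked genes hold 56 different genes besides the 9 factors. Of these, 48 could be matched and 37 reached the floor, 7 higher and 30 lower with PCN. Over all measured genes 42.4% were lower, a share that also stands beside the counts of each list below. The median log2 difference was -0.05 for the linked genes against 0.03 over all measured genes. None of the 37 was 1.5-fold higher, against 0.636% of all measured genes, and 4 were 1.5-fold lower, against 1.30%. The 4 were Slc2a2, Baat, Tdo2 and Arg1, whose values were known from earlier work on these arrays when the lists were written. All the lists were chosen with earlier results known, and they share genes. Neither the count of 4 nor the counts by direction therefore support a link to the factors.

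Of 18 genes linked to C/EBP factors, 13 were measured, 1 higher and 12 lower, with a median of -0.06. Tdo2, the tryptophan-degrading dioxygenase, had an intensity of 448 in the PCN array and 851 in the DMSO array, 1.90-fold lower. Arg1, which encodes the last enzyme of the urea cycle, had 638 in the PCN array and 1146 in the DMSO array, 1.80-fold lower. Both values were known when the list was written, so their size beside that of Cebpa does not support a link, and a link was not tested. Ugp2, which makes UDP-glucose for glycogen, was at -0.30 and the haptoglobin gene Hp at -0.15 on the log2 scale. Other members are named after their values were seen. Alb, the albumin gene, had 21383 in the PCN array and 21685 in the DMSO array, a log2 difference of -0.02 at a signal where arrays can be compressed. Tat, with 14.9 in the PCN array and 23.9 in the DMSO array, and Gys2, with 13.9 in the PCN array and 22.8 in the DMSO array, were under the floor in both. These genes encode tyrosine aminotransferase and liver glycogen synthase.

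Of 26 genes linked to HNF4A, 19 were measured, 4 higher and 15 lower, with a median of -0.04. Baat, which conjugates bile acids, had an intensity of 35.1 in the PCN array and 81.5 in the DMSO array, 2.32-fold lower, with the PCN value near the floor. Pklr, the liver pyruvate kinase gene, was at -0.39. Fabp1, the liver fatty acid-binding protein gene, was at 0.45, with 68.4 in the PCN array and 50.1 in the DMSO array. The list also contains Ppara, given above. Fabp1 and Baat thus lay on opposite sides of 0 within the same list, but both sizes depend on the floor. With a floor of 6, Fabp1 was at 0.10 and Baat at -0.35, as bounds.

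Of 13 genes linked to FOXA factors, 10 were measured, 2 higher and 8 lower, with a median of -0.04. Slc2a2, the glucose transporter GLUT2, had an intensity of 311 in the PCN array and 842 in the DMSO array, 2.71-fold lower. Afp, the fetal serum protein gene, was at 0.22, with 370.2 in the PCN array and 317 in the DMSO array. Cpt1a, of fatty acid import into mitochondria, was at -0.16 and Mttp, of lipoprotein assembly, at -0.07. Of 9 genes linked to ONECUT1, 4 were measured, all of them lower, but Hnf4a and Foxa2 among them are members described above. The other two were Slc2a2 and Ttr, the transthyretin gene, at -0.02. Of 12 genes linked to NR5A2, only 3 were measured, Apom at -0.13, Apoa1 at -0.03 and Scarb1 at 0.02. The last of these turned to the other sign under quantile normalization, median centring and removal of a loess trend. The genes of the small heterodimer partner and of cholesterol 7α-hydroxylase, Nr0b2 and Cyp7a1, both named after their values were seen, were under the floor in both arrays.

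**Figure D3:**
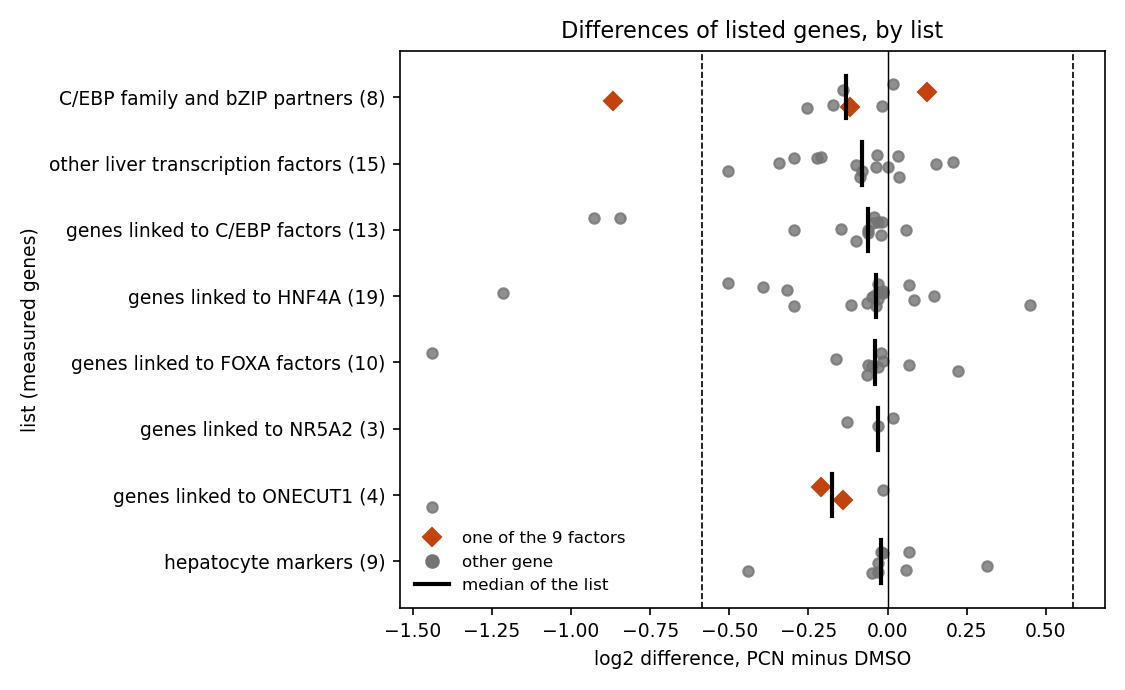
Log2 difference, PCN minus DMSO, of the measured genes of 8 lists (the regulators, the genes linked to each factor and the hepatocyte markers), 1 point a gene, with the number measured in parentheses; diamonds are members of the 9 factors, bars are list medians and dashed lines mark 1.5-fold. The 8 medians lie between -0.18 and -0.02, and the points past the left dashed line are Cebpa, Tdo2, Arg1, Baat and Slc2a2, the last shown in 2 lists.

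The label of the cells was checked against markers. Of 10 hepatocyte markers with a named probe set, 9 were measured, 3 higher and 6 lower with PCN. Their median log2 difference was -0.02. The marker under the floor on both arrays was Tat, with 14.9 in the PCN array and 23.9 in the DMSO array. Over all 10 probe sets, Tat included, the summed intensity was 99754 in the PCN array and 100039 in the DMSO array. Most of each sum came from very bright genes, such as Trf at 22061 and Alb at 21383 in the PCN array. Arrays can be compressed at such signals, which also bears on the median. The share of hepatocytes in each culture was not tested. Among the markers, the largest differences were -0.44 for Asgr1, the asialoglycoprotein receptor, and 0.32 for Cyp2e1, a P450 enzyme, followed by 0.07 for Serpina1a and 0.06 for Fgb. Among fetal liver markers, Afp alone of 5 was measured.

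Markers of other liver cells were mostly under the floor, except in the bile duct list. The sums given for them run over all matched probe sets of a list, those under the floor included. Of 7 bile duct markers with a named probe set, 4 were measured, namely Sox9 at -0.42, Krt19 at 0.40, Cd24a at -0.36 and Onecut2 at -0.21, and all 7 summed to 827 in the PCN array and 935 in the DMSO array. Stellate cell and fibroblast markers were measured for 2 of 10, Dcn at -0.17 and Acta2, which was under the floor in the PCN array and at least 1.14-fold lower, and all 10 summed to 405 in the PCN array and 452 in the DMSO array. Markers of Kupffer cells and leukocytes were measured for 2 of 9, Cd14 at 0.15 and Cd68 at -0.06. Both were far above the floor. Cd14 had an intensity of 1802 in the PCN array and 1619 in the DMSO array. Cd68 had 1626 in the PCN array and 1690 in the DMSO array. All 9 summed to 3484 in the PCN array and 3364 in the DMSO array, most of it from Cd14 and Cd68. Of 9 endothelial markers, 2 were measured, Stab2 at -0.19 and Lyve1, which was under the floor in the DMSO array and at least 1.24-fold higher, and all 9 summed to 165 in the PCN array and 152 in the DMSO array. The part of other cells in the differences of the 9 factors was not tested.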

How the data were processed

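The data are 2 Affymetrix arrays, 1 per group, each hybridised with cRNA made from 5 µg of RNA pooled over 3 samples, per the labels' protocols. The authors deposited intensities made with GCRMA (version 2.2.0, per the submitters' processing notes), read as linear from the values (1.13 to 28482). GCRMA corrects background from probe sequence and normalizes arrays to each other, which hides changes in total RNA. The build and the probe set definition behind the intensities were not given in the sources. Batches were not used here and, at 1 array a group, cannot be told apart from treatment.

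Probe sets were named through the platform annotation, which holds 1 probe set for each member. All 9 Entrez numbers matched RefSeq symbols (GRCm38.p6). Python 3.11.15 (numpy 2.4.6, pandas 2.3.3) gave the log2 differences, PCN minus DMSO. The floor was a log2 intensity of 5: genes below it on both arrays were taken as unmeasured, and where 1 array was below it that value was set to 5, so the fold is a bound ("at least"). The floor is a choice, since no detection calls were used. Sizes of 1.2-fold, 1.5-fold and 2-fold were counted, with no test and no p-value. These steps were first tested on simulated data with known changes. The planted changes were larger than 2-fold, lay in genes well above the floor and were counted at 2-fold. The noise was smaller than the spread of the added controls. The simulation therefore does not bear on the sizes of 1.2-fold and 1.5-fold or on genes near the floor. Precision is limited by the number of arrays.

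The members and the 13 gene lists were chosen with earlier results of these data known. Named genes are the members, their relatives by symbol, and in each list the 4 with the largest difference and any at 1.5-fold. Lists share genes. Motifs were chosen with the promoter sequences in view. Alternatives were floors of 4 or 6, no floor, low values kept as deposited, quantile normalization, median centring and subtraction of a loess curve (fraction 0.3, statsmodels 0.14.6).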

Additional observations from a re-analysis of the deposited data

How the results depend on the processing

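All 7 alternatives were planned. For the 8 measured factors none of them changed a direction: Cebpa ranged from -0.91 to -0.87 on the log2 scale, Cebpb from 0.09 to 0.13, and Foxa3 and Nr5a2 from -0.40 to -0.34 together. Onecut1 was at -0.22 with a floor of 4, a bound of its difference, and at -0.64 with no floor, which brought the members 1.5-fold apart to 2. With the main floor, 3 members were 1.2-fold apart and 0 were 2-fold apart. With no floor, 33 genes in all were 2-fold apart, against 21, and 260 were 1.5-fold apart, against 125, since dim genes then enter. Of 90 list medians, 87 moved by less than the SD of the added controls. The others were genes linked to NR5A2 at -0.13 with no floor, and endothelial markers at 0.18 with a floor of 4 and 0.17 with no floor. With a floor of 6 no endothelial marker was measured, Baat stood at -0.35 and Fabp1 at 0.10, as bounds. Of 248 values of the 36 named genes, 3 changed sign, all for Scarb1. No replicate could be left out, and averaging of probe sets did not apply, since each member had 1. No paired analysis was possible because there was a single array for PCN and for DMSO. Signal close to background limits Onecut1, Tat, Gys2, Baat and Fabp1.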
